A study of Mus musculus with 8 samples.

Results

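The genes described here are 9 components of interferon signalling, the receptor subunits Ifnar1, Ifnar2, Ifngr1 and Ifngr2 and the transcription factors Stat2, Irf1, Irf3, Irf7 and Irf9. They were chosen by symbol, as the subunits of the type I and type II interferon receptors and the STAT and IRF factors that act behind them, and each was present as 1 entry among the 47502 distinct gene symbols of the count tables. All 9 passed the filter on low counts that left 19366 entries for testing. RNA was sequenced from the cochlea, the hearing organ, of 4 wild-type (WT) mice and 4 Opa1+/- mice, which carry 1 mutated copy of Opa1, the gene of a mitochondrial inner-membrane fusion protein. The mutation is a constitutive knock-in of a human dominant optic atrophy mutation, so it was present in every cell of the animal, and the controls were WT littermates taken at the same age, post-natal p21. The paper describes the line as made on a mixed background of mouse strains. Neither group was treated. The mice are named here as in the labels, WT_4, WT_5, WT_6 and WT_8 for the controls and Het_2, Het_7, Het_484 and Het_491 for the Opa1+/- mice, with the animal number last, and values are listed in this order throughout. In each library 1 mouse was sampled, and the isolated cochlea was used whole, so the RNA came from hair cells, neurons, glia, vessels, bone and resident blood cells together.

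Type I interferons bind a receptor made of IFNAR1 and IFNAR2, and type II interferon binds one made of IFNGR1 and IFNGR2. The receptors act through JAK kinases. STAT2 and IRF9 are parts of the complex ISGF3, which binds interferon-stimulated response elements (ISRE), and STAT pairs bind gamma-activated sites (GAS). IRF3 and IRF7 stand at the other end of the pathway, where sensors of nucleic acids activate them to switch on the interferon genes. IRF1, IRF7, IRF9 and STAT2 are themselves encoded by interferon-stimulated genes, and interferon signalling can be set off by mitochondrial DNA that leaks into the cytosol.

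The stretches before the start sites of 4 of the genes are shown because they hold letters of the elements through which interferon receptors act. RefSeq windows on GRCm38.p6 were searched on both strands, from 250 bases before to 50 bases after each annotated start, and the 9 genes had 11 such windows. The ISRE core was spelled GAAANNGAA, with a shorter form GAAANNGA contained in it, and the GAS was spelled TTCNNNGAA. Capitals mark the match, which in Stat2 and Irf7 lies on the opposite strand and therefore reads reversed and complemented. Irf7 is on the minus strand of the chromosome and the others are on the plus strand.
Irf1 chr11:53769764-53770013: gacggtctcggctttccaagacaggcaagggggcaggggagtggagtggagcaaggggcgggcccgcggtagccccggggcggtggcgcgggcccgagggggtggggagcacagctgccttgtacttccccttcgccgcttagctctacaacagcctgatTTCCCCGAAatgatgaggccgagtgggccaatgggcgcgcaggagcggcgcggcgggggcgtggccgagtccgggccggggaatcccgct
Stat2 chr10:128270248-128270497: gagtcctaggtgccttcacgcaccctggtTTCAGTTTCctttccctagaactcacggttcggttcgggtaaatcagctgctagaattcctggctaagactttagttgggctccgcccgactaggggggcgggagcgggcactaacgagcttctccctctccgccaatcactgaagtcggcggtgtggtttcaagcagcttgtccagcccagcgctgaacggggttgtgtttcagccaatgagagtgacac
Irf7 chr7:141266425-141266674: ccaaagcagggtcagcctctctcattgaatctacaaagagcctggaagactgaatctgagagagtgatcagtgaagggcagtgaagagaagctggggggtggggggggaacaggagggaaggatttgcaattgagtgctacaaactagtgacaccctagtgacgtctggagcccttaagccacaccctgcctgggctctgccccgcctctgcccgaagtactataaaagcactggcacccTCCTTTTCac
Ifnar2 chr16:91372533-91372782: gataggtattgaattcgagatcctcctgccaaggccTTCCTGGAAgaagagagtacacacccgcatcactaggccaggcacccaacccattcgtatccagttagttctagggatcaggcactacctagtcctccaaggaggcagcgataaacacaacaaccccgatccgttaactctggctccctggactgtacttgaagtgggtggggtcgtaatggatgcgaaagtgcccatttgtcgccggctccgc

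The Stat2 window held the only ISRE core among the 9 genes, at bases -221 to -213 from the start, and 8.56% of the 32851 RefSeq windows held one. In the Irf7 window the shorter form lay at -10 to -3, a form found in 21% of all windows. The windows that held GAS letters included those of Irf1, at -90 to -82, and Ifnar2, at -214 to -206, beside a share of 8.3% over all windows. These matches describe letters and not bound sites, and a window without a match says no more than that these letters were not in it.

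Levels are given in CPM, the usual unit for a gene's counts relative to the total of its library, scaled with edgeR's TMM factors. The libraries held 15978051 to 20828030 counts in named genes. Differences between the genotypes are log2 fold changes, Opa1+/- over WT, from edgeR's quasi-likelihood test over all 19366 entries, with Benjamini-Hochberg adjusted p-values over that whole table. Opa1 itself was lower in each Opa1+/- mouse than in each WT mouse, at 65.6 ± 4.42 against 119.7 ± 6.09 CPM (SD, n = 4 each). Markers of hair cells, spiral ganglion neurons, stria vascularis and Schwann cells were present in all libraries. Since the tissue was not sorted, fewer cells of a type and less RNA per cell cannot be told apart in any value below.

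By edgeR, 0 of the 9 genes had an adjusted p under 0.05, against 0.0258% of all entries. The signs of the differences are given by role as a description. Of the 4 receptor subunits, 2 had a higher and 2 a lower mean in Opa1+/- mice, with a median log2 fold change of 0.020, and of the 5 transcription factors 4 had a higher mean, with a median of 0.18. Over all entries 50.1% of fold changes were positive, with a median of 3.95e-04. Irf1 was the only one of the 9 with an unadjusted edgeR p under 0.05 in the higher direction, and no member had one in the lower direction, whereas 3.51% of entries did so in the higher and 3.22% in the lower direction, 679 and 623 entries, a split that was 459 and 778 when libraries were scaled by total counts alone. For none of the 9 genes did all Opa1+/- mice lie above all WT mice, an arrangement found in 1.98% of entries, and for none did all lie below, found in 2.33%. DESeq2 gave 0 adjusted calls among the 9 genes and none with an unadjusted p under 0.05, beside 25 adjusted calls and 529 higher and 594 lower unadjusted ones among all 19366 entries.

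**Figure D1:**
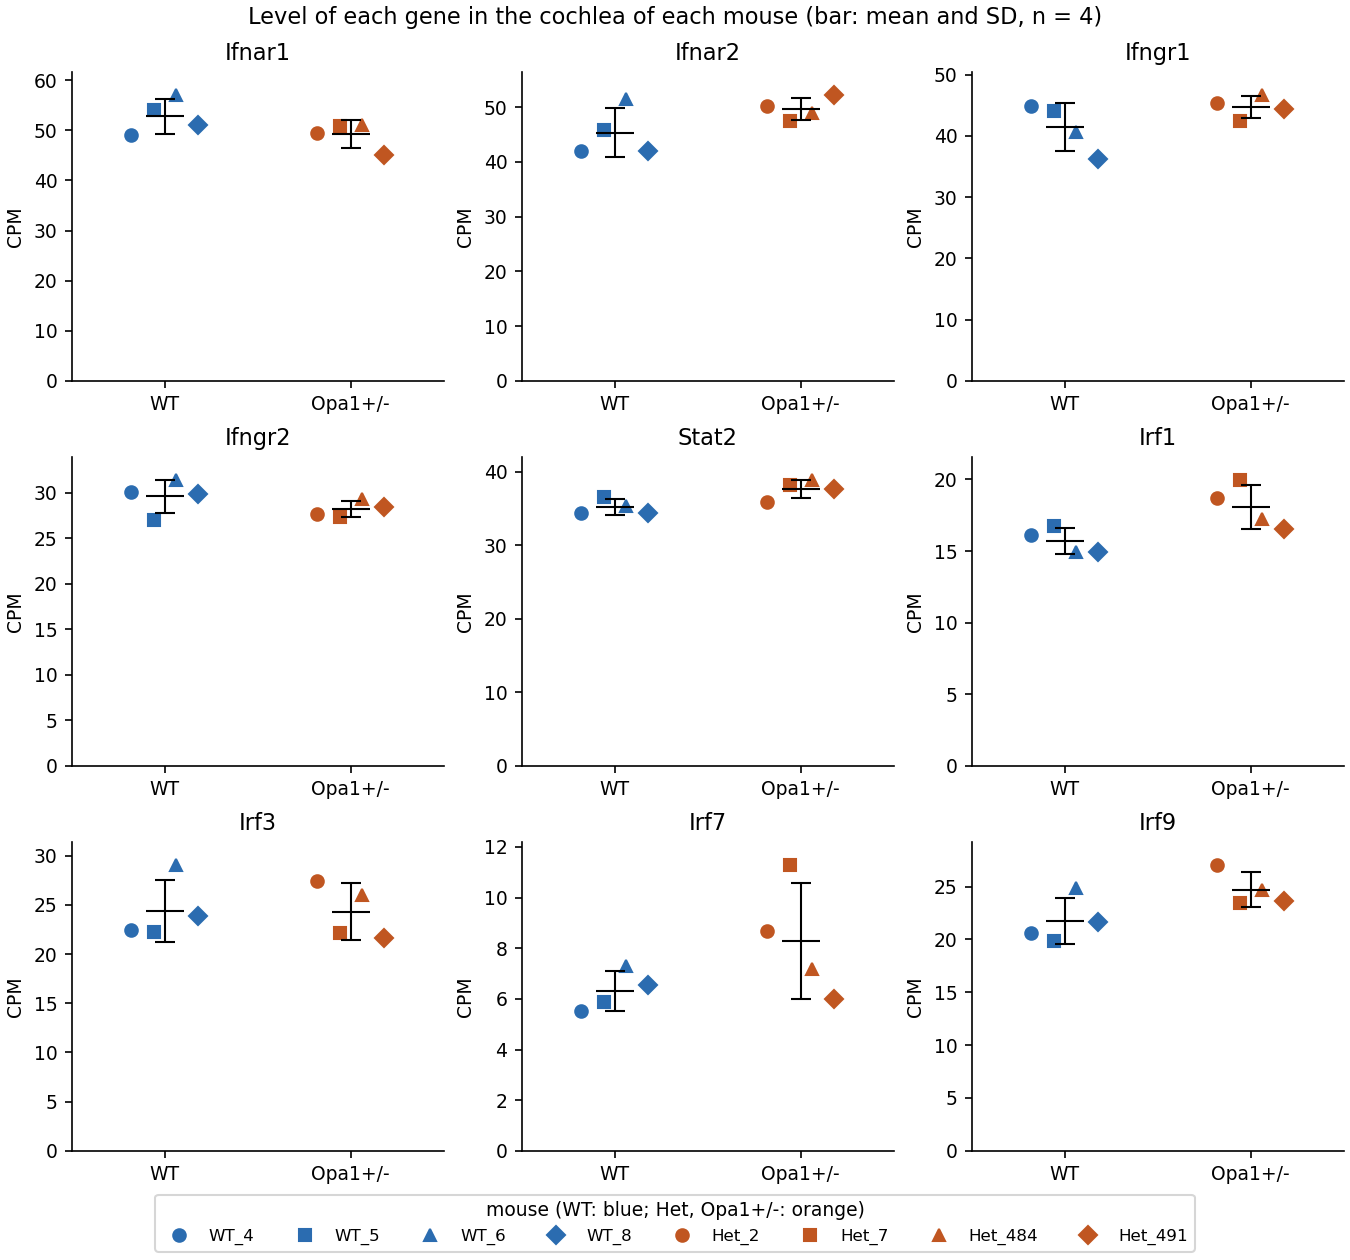
Level of each of the 9 genes in CPM (vertical axes, starting at 0) in each mouse, with WT in blue and Opa1+/- in orange, a symbol for each animal, and the group mean with its SD in black (n = 4). The groups overlap in all 9 panels, and the Irf7 panel shows Het_7 at 11.3 CPM above the others.

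Ifnar1, the subunit of the type I receptor that pairs with the kinase TYK2, was measured at 49.0, 54.0, 57.1 and 51.2 CPM in WT mice and at 49.5, 50.9, 51.2 and 45.2 CPM in Opa1+/- mice. The groups overlapped, with the lowest value in an Opa1+/- mouse and the top values in WT mice. The log2 fold change was -0.10 (SE 0.0661, 95% interval -0.25 to 0.047, adjusted p = 0.790), and it was nearer to 0 without WT_6 (-0.063) and without Het_491 (-0.066).

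Ifnar2, the subunit with the higher affinity for the ligand, had the opposite sign. WT mice had 42.0, 45.9, 51.5 and 42.0 CPM and Opa1+/- mice 50.3, 47.5, 48.9 and 52.2 CPM. A single WT mouse, WT_6, reached the range of the Opa1+/- mice, whose values lay close together. The log2 fold change was 0.13 (SE 0.0743, 95% interval -0.034 to 0.30, adjusted p = 0.765). With 1 mouse left out it ranged from 0.094 without WT_8 (edgeR adjusted p = 0.997) to 0.20 without WT_6 (adjusted p = 0.633).

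Ifngr1, which binds interferon gamma, was at 44.9, 44.0, 40.6 and 36.2 CPM in WT mice and at 45.4, 42.4, 46.7 and 44.4 CPM in Opa1+/- mice. WT_8 was the lowest of the 8. Its partner Ifngr2, the signalling subunit, was at 30.1, 27.0, 31.4 and 29.9 CPM in WT mice and at 27.7, 27.3, 29.3 and 28.5 CPM in Opa1+/- mice, so that both ends of its range were WT mice. The edgeR log2 fold changes were 0.11 for Ifngr1 (SE 0.0743, adjusted p = 0.792) and -0.069 for Ifngr2 (SE 0.0621, adjusted p = 0.845). Their 95% intervals, -0.057 to 0.28 and -0.21 to 0.070, reached folds of 1.21 at most for Ifngr1 and 0.865 at least for Ifngr2. Single mice moved both values, Ifngr1 to 0.046 without WT_8, and Ifngr2 to -0.11 without WT_5 and -0.040 without WT_6.

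Within a mouse, the ratio of the counts of 2 partner genes does not depend on library size. The log2 ratio of Ifnar1 to Ifnar2 was 0.22, 0.23, 0.15 and 0.28 in WT mice and -0.021, 0.0999, 0.066 and -0.21 in Opa1+/- mice. All Opa1+/- mice lay below all WT mice, that is, relative to Ifnar2 they had fewer Ifnar1 counts than any WT mouse. The means differed by -0.24, from 0.22 ± 0.056 to -0.016 ± 0.14 (SD, n = 4), with a two-sided exact permutation p of 0.0286, the smallest that 4 mice against 4 allow, and 0.0571 after adjustment over the 4 ratios compared, so it missed the threshold. Leaving out 1 mouse at a time gave differences from -0.28 to -0.17.

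Both genes lie in the receptor cluster on chromosome 16 of GRCm38, where Ifnar2 (91372783 to 91405589) is followed, among the receptor genes, by Il10rb, Ifnar1 (91485238 to 91507441) and Ifngr2 (91547072 to 91565623), all on the plus strand. The read-through gene Gm21970 (91391721 to 91419451) has 884 bases of exon, of which 315 lie in exons of Ifnar2 and the other 569 in exons of Il10rb. It was counted as a gene of its own, with 517 to 703 counts per mouse beside 735 to 948 for Ifnar2, and its log2 fold change was -0.0058. How reads in the shared bases were divided is not given in the sources used here, so the level of Ifnar2 is uncertain to that extent. With all Gm21970 counts added to those of Ifnar2, the log2 ratio of Ifnar1 to Ifnar2 was -0.58 ± 0.028 in WT and -0.76 ± 0.12 in Opa1+/- mice, a difference of -0.18. The groups did not overlap (exact permutation p = 0.0286, unadjusted). This sum was chosen after the data were seen, and it uses the same mice and the same Ifnar1 counts.

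The neighbours in this cluster gave no common direction. Of 11 genes of the region tested, 6 had a positive fold change, with a median of 0.015, 1 had an unadjusted edgeR p under 0.05, Olig1 at 0.45, and 0 passed adjustment by edgeR. Opa1 is on the same chromosome, 61717898 bases from Ifnar2. The line has a mixed strain background, and the part of strain in these values was not tested. The receptors' genotype difference was also small in Il10rb and Ifnlr1, the subunits of the type III receptor, at -0.042 and -0.022.

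In the type II receptor pair the genotypes overlapped. The log2 ratio of Ifngr1 to Ifngr2 was 0.48 ± 0.19 in WT and 0.66 ± 0.037 in Opa1+/- mice (SD, n = 4), with an exact permutation p of 0.143 (0.190 adjusted), and the difference of 0.18 ranged from 0.11 without WT_8 to 0.26 without WT_5. All 4 Opa1+/- mice lay close together, while WT_4, WT_6 and WT_8 were lower than any of them.

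**Figure D2:**
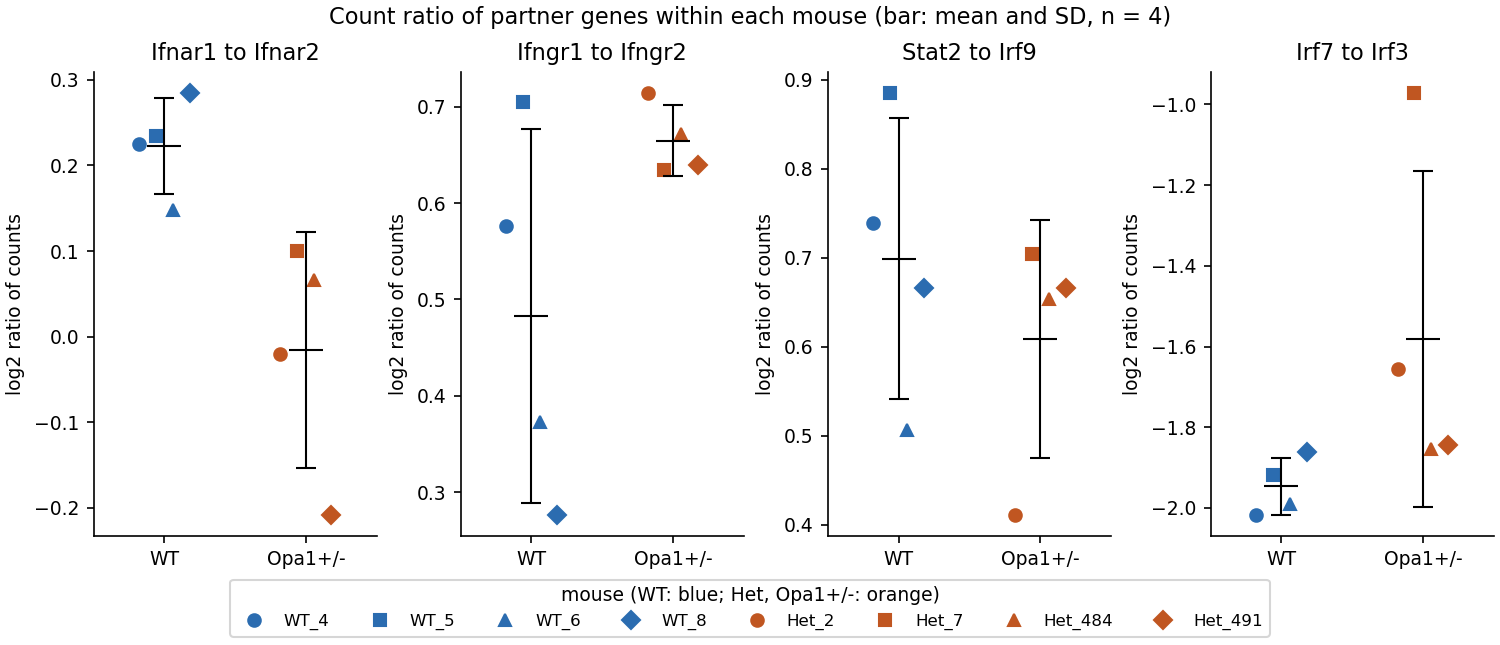
Log2 ratio of raw counts of partner genes within each mouse (vertical axes, which do not start at 0), WT in blue and Opa1+/- in orange, with mean and SD in black (n = 4). The groups do not overlap for Ifnar1 to Ifnar2 (difference -0.24) and are barely apart for Irf7 to Irf3 (difference 0.36), where Het_7 stands apart, and they overlap for the remaining pairs.

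Of the transcription factors, Stat2 varied least between mice. It is the STAT particular to type I and type III signalling within ISGF3, and it was at 34.4, 36.6, 35.3 and 34.4 CPM in WT mice and at 35.9, 38.1, 38.9 and 37.6 CPM in Opa1+/- mice. The Opa1+/- mice other than Het_2 lay above every WT mouse. The log2 fold change was 0.097 (SE 0.0506, 95% interval -0.017 to 0.21, adjusted p = 0.760). Its coefficient of variation was 2.96% in WT and 3.30% in Opa1+/- mice, below the 3.91% that counting error alone gives at its 589 to 761 counts.

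Irf9, the DNA-binding partner of STAT2, was at 20.6, 19.8, 24.9 and 21.7 CPM in WT mice and at 27.0, 23.4, 24.7 and 23.7 CPM in Opa1+/- mice. WT_6 alone reached into the range of the Opa1+/- mice. The log2 fold change was 0.18 (SE 0.0857, 95% interval -0.0078 to 0.38, adjusted p = 0.749). With 1 mouse left out it ranged from 0.14 without Het_2 (edgeR adjusted p = 0.834) to 0.25 without WT_6 (adjusted p = 0.633). For the ISGF3 partners the groups overlapped, with a log2 ratio of Stat2 to Irf9 of 0.70 ± 0.16 in WT and 0.61 ± 0.13 in Opa1+/- mice (exact permutation p = 0.371). Their difference, -0.090, ranged from -0.15 without WT_6 to -0.024 without Het_2. Irf9 and the next gene Rnf31 share 123 bases of the same strand.

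Irf1, a factor induced by both interferon types, whose GAS letters are shown above, had the only unadjusted edgeR p under 0.05 of the 9 genes. WT mice had 16.2, 16.7, 14.9 and 14.9 CPM and Opa1+/- mice 18.7, 20.0, 17.2 and 16.5 CPM. The groups overlapped in 1 mouse each, Het_491 lying just below WT_5. The fold was 1.15 (95% interval 1.01 to 1.31; log2 fold change 0.21, SE 0.0841), with an edgeR p of 0.0354 that became 0.728 after adjustment. Leaving out 1 mouse at a time gave log2 fold changes of 0.16 to 0.24 and unadjusted p-values up to 0.109.

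Irf7, the IRF that amplifies type I interferon production, had the largest fold change of the 9 and the widest spread. WT mice had 5.54, 5.86, 7.29 and 6.56 CPM and Opa1+/- mice 8.69, 11.3, 7.18 and 6.0 CPM. Het_2 and Het_7 lay above every WT mouse and Het_484 and Het_491 lay within the WT range. The fold was 1.32 (95% interval 0.976 to 1.78; log2 fold change 0.40, SE 0.193, adjusted p = 0.758). Single mice moved it in both directions, since the log2 fold change was 0.21 without Het_7, 0.52 without Het_491 and 0.66 without Het_484 and Het_491, and the counts behind it were the lowest of the 9, 94 to 225 per mouse. Counting error accounts for a coefficient of variation of 8.71% at this depth, while 27.5% was seen among Opa1+/- and 12.3% among WT mice. The strand setting of the counting is not given in the sources used here, and Irf7 shares 45 bases with Phrf1 on the opposite strand, a gene with a mean of 768.5 counts per mouse.

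Irf3, which is present before any interferon signal and is activated by phosphorylation, was at 22.5, 22.2, 29.0 and 23.9 CPM in WT mice and at 27.4, 22.2, 26.1 and 21.6 CPM in Opa1+/- mice. WT_6, Het_2 and Het_484 were the highest, so that both genotypes spanned nearly the same range. The log2 fold change was -0.0045 (SE 0.111, 95% interval -0.25 to 0.24, adjusted p = 0.996), so that folds between 0.839 and 1.18 were within the interval. Irf3 shares 1065 bases with Bcl2l12 on the opposite strand, which had 78.4 counts per mouse on average beside 436.1 for Irf3.

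On average the Opa1+/- mice had more Irf7 counts per Irf3 count, but the difference missed the threshold after adjustment. The log2 ratio of Irf7 to Irf3 was -1.95 ± 0.071 in WT and -1.58 ± 0.42 in Opa1+/- mice (SD, n = 4), a difference of 0.36 (exact permutation p = 0.0286, 0.0571 adjusted over the 4 ratios). The groups were separated by less than the rounding of the values, with WT_8 and Het_484 both at -1.86. Without Het_7 the difference was 0.16.

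**Figure D3:**
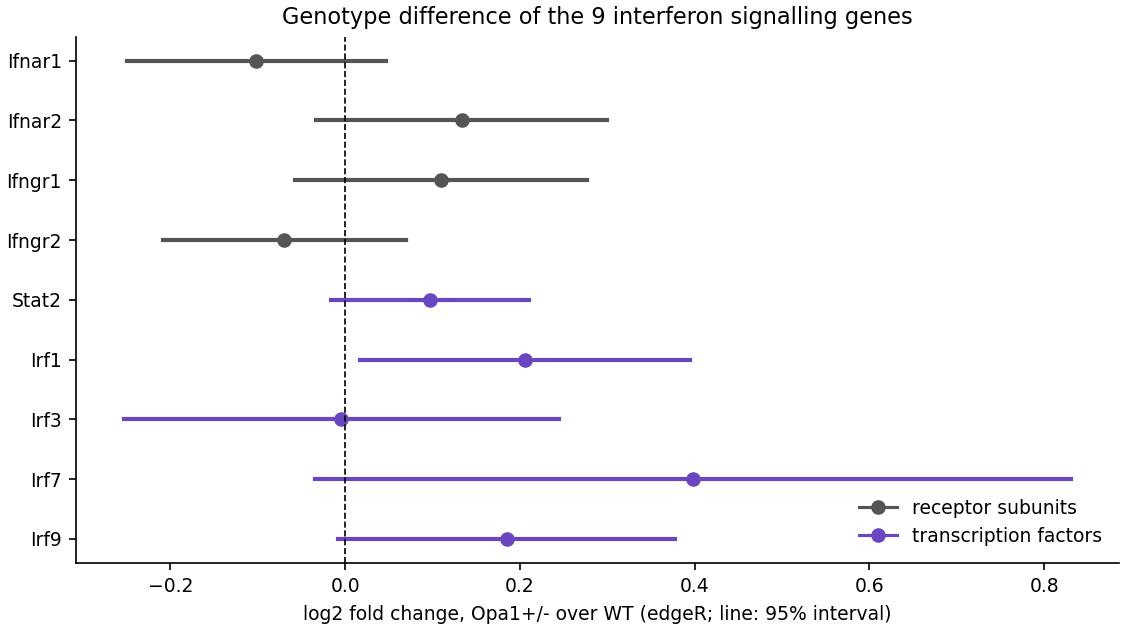
Log2 fold change of each of the 9 genes, Opa1+/- over WT (horizontal axis), as edgeR estimated it, with lines for the 95% interval, in grey for receptor subunits and purple for transcription factors. The interval of Irf1 alone (0.017 to 0.39) leaves out 0, and that of Irf7 (-0.035 to 0.83) is the widest.

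Compared per length, as CPM per kilobase of merged exons, the receptor subunits had higher means than the factors, an order that Ifngr2 did not keep with another length. Ifngr1 was highest at 15.1 ± 1.17 and Ifnar2 next at 14.3 ± 1.20 (SD over the 8 mice), followed by Ifnar1 at 8.59 ± 0.588 and Ifngr2 at 7.67 ± 0.406. Irf3 was at 7.08 ± 0.813, Stat2 at 6.14 ± 0.284, Irf9 at 4.31 ± 0.445, Irf1 at 4.25 ± 0.436 and Irf7 at 1.93 ± 0.503. The ranges over the 8 mice did not overlap at 3 steps of this order, between Ifnar2 and Ifnar1, between Stat2 and Irf9 and between Irf1 and Irf7. Only the gap before Irf7 is kept when the longest coding transcript gives the length, an alternative chosen after the data were seen. At the other 5 steps the ranges overlapped, and Ifngr1 was above Ifnar2 in 6 of 8 mice and Irf9 above Irf1 in 5 of 8. The order among the middle genes depends on the length used. With that transcript, Ifnar2 overlapped Ifnar1, a gap followed Irf3, and Ifngr2 moved from place 4 to place 8, while Ifngr1, Ifnar2 and Ifnar1 kept the first 3 places and Irf7 the last. The libraries were made by random priming of the whole transcript, and a read-through share as in Ifnar2 touches these levels too.

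**Figure D4:**
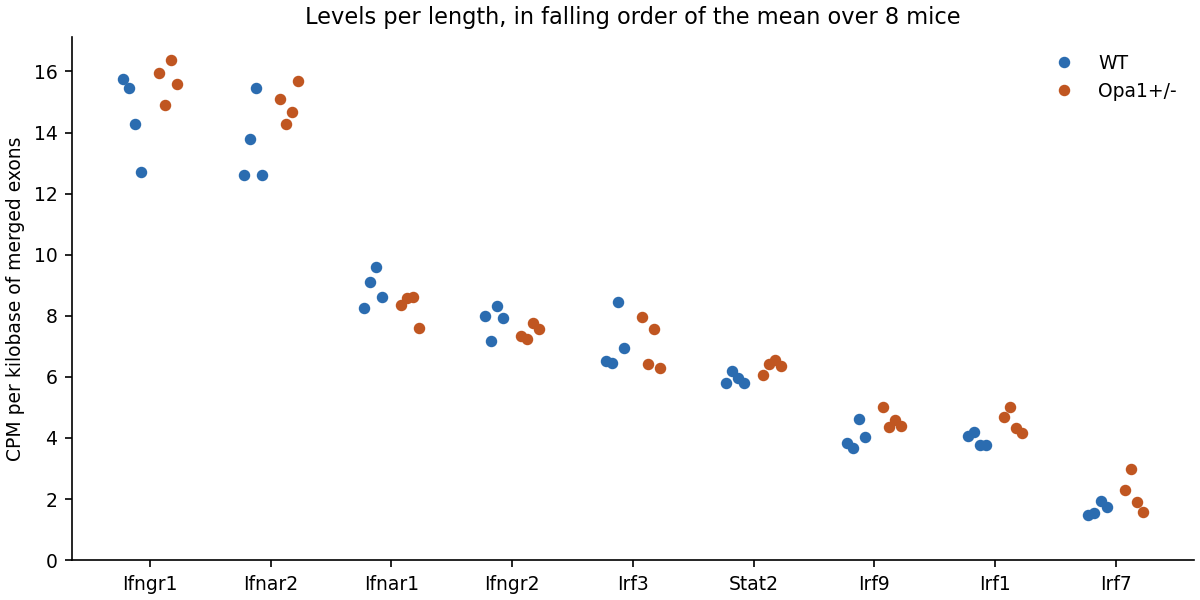
CPM per kilobase of merged exons (vertical axis) of each gene in each of the 8 mice, WT in blue and Opa1+/- in orange, in falling order of the mean. With this length, gaps follow Ifnar2, Stat2 and Irf1, and within each gene the values of both genotypes overlap.

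Along the rest of the pathway, the groups of genes that carry the signal had medians near 0 on the log2 scale, and the target genes had higher ones. This contrast is a description only, because the lists were put together with earlier results of these data known. Of 9 JAK kinases and other STATs tested, 5 had a positive fold change, with a median of 0.043. Stat6, which acts behind the receptors of interleukins, was at 60.6 CPM in WT and 65.5 in Opa1+/- mice, a log2 fold change of 0.11 with an edgeR adjusted p of 0.790. The 5 other IRFs tested had a median of 0.023, which was -0.16 without Het_484 and -0.20 with the erythroid covariate, with Irf5 at -0.27 and Irf2 at 0.083, neither with an unadjusted p under 0.05. The 10 adaptors and kinases that activate IRF3 and IRF7, such as Traf3 at -0.10 and Traf6 at -0.095, had a median of -0.031, which was 0.028 with the erythroid covariate, and none had an unadjusted p under 0.05.

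Of 13 negative regulators tested, 6 were positive and the median was -0.017. Trim24, a repressor of interferon targets, had 35.3 CPM in WT and 31.0 in Opa1+/- mice (log2 fold change -0.19, edgeR adjusted p = 0.722), and its groups did not overlap. Cish, a feedback inhibitor of cytokine receptors, was at 8.06 and 10.8 CPM (log2 fold change 0.42, adjusted p = 0.722). Thus 2 of the 13 had an unadjusted p under 0.05, 1 in each direction.

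Among 24 target genes of type I interferon, 23 had a positive fold change, with a median of 0.44, and 12 had an unadjusted edgeR p under 0.05, all higher. Over all entries, 50.1% of fold changes were positive and 3.51% had such a p in the higher direction. Isg15, a ubiquitin-like protein that is a standard marker of the response, was at 5.64 CPM in WT and 11.2 in Opa1+/- mice (log2 fold change 0.98, adjusted p = 0.294). Zbp1, a sensor of Z-form nucleic acids, was at 1.40 and 2.80 CPM (log2 fold change 1.0, adjusted p = 0.722). Of 23 entries for targets of type II interferon all 23 were positive, with a median of 0.23 and 9 with an unadjusted p under 0.05, such as Iigp1, an interferon-inducible GTPase, at 3.51 and 6.39 CPM, and Psmb8, a subunit of the immunoproteasome, at 10.5 and 13.9 CPM. No gene of these lists passed adjustment by edgeR, and the lists were put together with earlier results of these data known. The paper made its sequencing calls with DESeq2, and it reported a significant increase of Isg15 by RT-qPCR in a larger group of animals. Summed over the 24 type I targets, WT mice had 376.1, 400.2, 354.1 and 349.5 CPM and Opa1+/- mice 484.8, 474.9, 485.5 and 442.6 CPM. Het_7, the highest in Irf7, was not the highest in this sum.

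**Figure D5:**
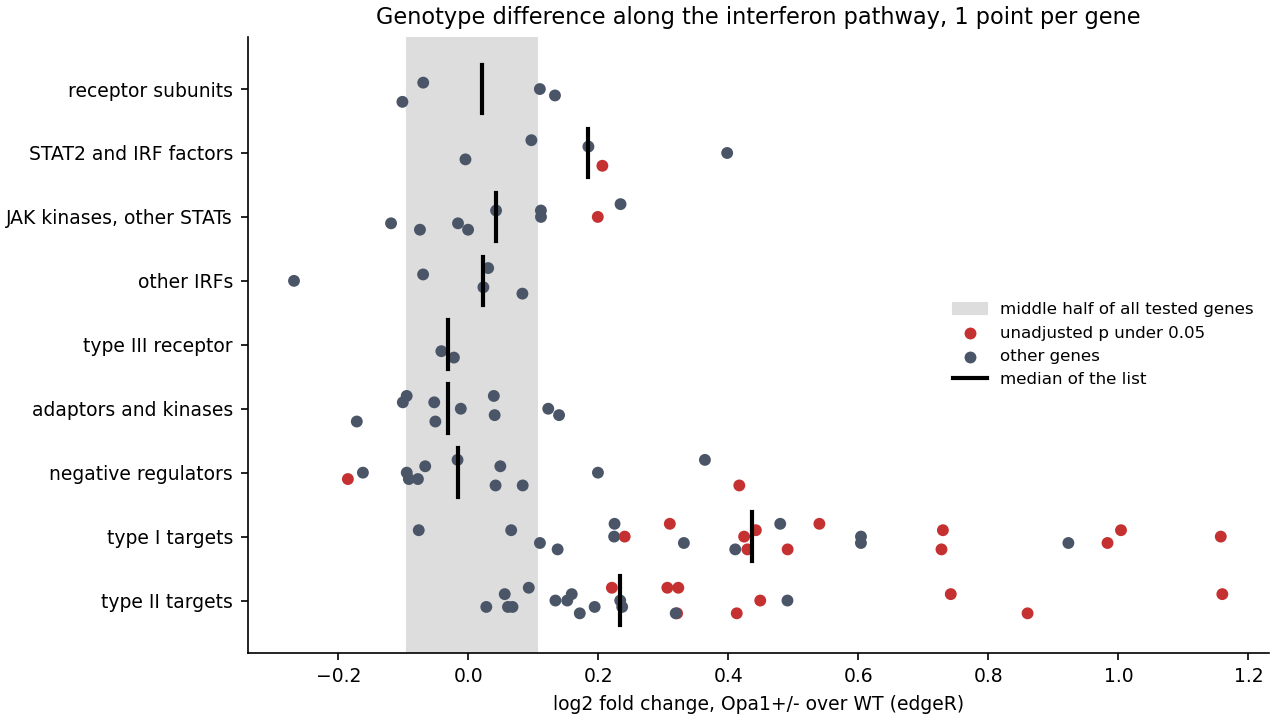
Log2 fold change, Opa1+/- over WT, of each tested gene (points) of 9 groups of interferon pathway genes, with a black line at each group's median and red points for an unadjusted p under 0.05. The grey band, from -0.0945 to 0.105, is the middle range of single tested genes and applies to single points, not to medians. The medians are at 0.020 for the receptors, 0.18 for the STAT2 and IRF factors and 0.44 for the type I targets. The lists were put together with earlier results of these data known.

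The ligands were all but absent. Of 21 interferon genes in the count tables, 17 had 0 counts in all 8 libraries, and the others, Ifna2, Ifna4, Ifnl2 and Ifnl3, had 1 count each, all in WT mice. A limit of 3 counts for an interferon gene with none corresponds to 0.144 to 0.188 CPM across the libraries, covering counting error only, so lower levels were not detectable at this depth and no genotype comparison was made.

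Immune and blood cells carry these receptors and factors too, and their markers were summed in each mouse. Macrophage markers, 7 of 12 positive, ranged from 295.0 to 450.0 CPM in WT and from 288.4 to 612.2 in Opa1+/- mice (exact permutation p = 0.8), and neutrophil and marrow markers, 5 of 12 positive, from 457.1 to 1479 and from 477.5 to 1203 (p = 0.83). Plasmacytoid dendritic cell markers, whose cells are rich in Irf7, were negative in all 4 tested genes and ranged from 9.96 to 35.7 and from 8.30 to 20.4 CPM (exact permutation p = 0.514). The highest plasmacytoid sums of each group, 35.7 CPM in WT_6 and 20.4 in Het_7, were in the mice with the highest Irf7 of their group, while Het_7 had 477.5 CPM of neutrophil markers, the lowest sum of its group. Other mice did not keep this order. Het_2, at 8.69 CPM of Irf7, had a plasmacytoid sum of 10.9, below the 18.9 of Het_484, which had 7.18 CPM of Irf7. WT_6, with the highest plasmacytoid sum of all mice, had less Irf7 (7.29 CPM) than Het_2 and Het_7. With the neutrophil and marrow sum as a covariate, the edgeR log2 fold change of Irf7 was 0.43, beside 0.40 without it. No such fit was made for the plasmacytoid sum, and the part of these cells in the level of Irf7 was not tested further. Erythroid markers were positive in 9 of 9, with a median log2 fold change of 0.56 and sums of 7746 to 21454 and of 15062 to 25054 (exact permutation p = 0.171). Endothelial markers were positive in 8 of 8, from 279.9 to 302.5 and from 283.1 to 334.8, and their highest sums were in Het_2 and Het_7, the mice that were highest in Irf1 and Irf7 (exact permutation p = 0.114). Schwann cell markers were positive in 8 of 8 too, with a median log2 fold change of 0.20 and sums of 3234 to 4423 and of 3887 to 5268 (exact permutation p = 0.257), while 7 of 8 stria vascularis markers were negative, with a median of -0.16 and sums of 910.5 to 1789 and of 1173 to 1343 (exact permutation p = 0.571). With the erythroid sum as a covariate the log2 fold change of the receptors was -0.029 for Ifnar1, 0.16 for Ifnar2, 0.017 for Ifngr1 and -0.067 for Ifngr2. In the same fit the factors were at 0.095 for Stat2, 0.20 for Irf1, 0.11 for Irf3, 0.65 for Irf7 and 0.26 for Irf9, so that Ifnar1 and Ifngr1 moved towards 0 and Irf7 away from it. The part of the endothelial, Schwann and stria cells in these values was not tested.

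For each gene the gene with the most similar pattern was named by Pearson's r of log2 CPM over the 8 mice, among 17957 genes with a mean of at least 1 CPM. This is a description, since the 8 mice share their libraries and depth across genes and a high r is easily reached among so many. Irf1 was most like Oasl2, itself an interferon target (r = 0.972), and Irf7 most like Junb (r = 0.973). Stat2 came nearest to Slc52a2 (0.934), Irf9 to Zfp775 (0.977) and Irf3 to Coq2 (0.973). The receptors were nearest to Crybg3 for Ifnar1 (0.974), Rilp for Ifnar2 (0.983), Nkapl for Ifngr1 (0.967) and Nsun4 for Ifngr2 (0.965). Within the 9 genes the closest pairs were Ifnar2 with Irf9 (0.744) and Irf1 with Irf7 (0.727), and none of the 9 was the nearest gene to another. Ifnar1 had 96 genes with r over 0.9 and Irf7 had 6.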

How the data were processed

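Cochlear RNA of 4 WT and 4 Opa1+/- mice was sequenced. The authors prepared CORALL libraries, corrected amplification with molecular identifiers, trimmed reads and mapped them to GRCm38 with STAR, and deposited raw counts per gene symbol, 1 table per mouse, without normalization. The counter, its annotation and its strand setting are not given in the sources used here, nor is which mice, if any, were extracted with the second of the kits that the labels name. Genotypes came from the labels, which gave the groups no shared animal number. Left out were 15 entries with a number for a symbol (0.112 to 0.124% of counts). Libraries held 15978051 to 20828030 named counts, 11.7 to 16.1% of them mitochondrial.

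Entries with a mean DESeq2-normalized count above 10 were tested (19366) with edgeR 4.0.16 (TMM, quasi-likelihood, genotype as the only term). The SE is the log2 fold change over the square root of F. Ratios used counts with 0.5 added, and exact permutation tests over the 70 arrangements of the mice. DESeq2 1.42.0, limma 3.58.1 voom, other scalings and filters, marker covariates and left-out mice were alternatives. The code was tested on simulated data. Exon lengths came from GENCODE vM21 and sequences from RefSeq. All 9 genes were named, with the 2 genes of lowest unadjusted p in each pathway list and the gene most like each member. Of these, 1 gene of the pathway lists and 1 promoter stretch are not reported here. The members and lists were chosen with earlier results of these data known.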

Additional observations from a re-analysis of the deposited data

How the results depend on the processing

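The fold changes of 8 of the 9 genes kept their direction and, like Irf3, stayed above an adjusted p of 0.05 under all 19 alternatives of the fit, and the median of the 9 stayed between 0.079 and 0.15. Irf3, at -0.0045, turned positive with limma voom (0.071), with the neutrophil (0.011) or erythroid sum (0.11) as a covariate and without Het_484 and Het_491 (0.018), and ranged from -0.065 to 0.088 with 1 mouse left out. The number of the 9 with an unadjusted p under 0.05, 1 in edgeR (Irf1), was 1 with a filter of at least 1 count, but then Irf7, 0 with total-count scaling and with DESeq2, 4 with voom (Ifnar2, Irf1, Irf7 and Irf9), 2 with the neutrophil covariate (Irf1 and Irf7), 2 with the erythroid covariate (Irf7 and Irf9), 2 without Het_484 and Het_491 (Irf1 and Irf7) and 0 to 3 with 1 mouse left out, the 3 without WT_6 being Ifnar2, Irf7 and Irf9. Over all entries, such calls were 679 higher and 623 lower in edgeR, 459 and 778 with total-count scaling, 529 and 594 with DESeq2, 1024 and 970 with voom, 762 and 600 with the neutrophil and 461 and 442 with the erythroid covariate, 268 and 314 without Het_484 and Het_491, 764 and 751 without WT_6 and 461 and 636 without Het_491. With 1 mouse left out they ran from 340 and 377 without WT_8 (0 members) to 1162 and 840 without WT_4 (1 member), so the members' count did not follow them throughout. Opa1, at -0.87, lost its adjusted call with the erythroid covariate (-0.89), without Het_484 and Het_491 (-0.86) and without Het_2, and ranged from -0.90 to -0.83 with 1 mouse left out. The 4 ratios kept their direction, and none passed an adjusted p of 0.05 where one was computed, which excludes the ratio with Gm21970 counts added. The count of all entries with an adjusted p under 0.05, 5 in edgeR, was 25 with DESeq2 at the highest and 0 at the lowest, with the erythroid covariate, without Het_2 and without Het_484 and Het_491. The cause of these shifts was not tested. No paired analysis was possible because the groups share no animal number. The 4 mice per group limit what can be called, and the depth limits Irf7 and the ligands most.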

Other observations

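The gene nearest to Irf3 by pattern, Coq2, an enzyme of coenzyme Q synthesis, had 41.6, 41.6, 47.3 and 44.0 CPM in WT_4, WT_5, WT_6 and WT_8 and 46.7, 42.9, 45.5 and 41.2 CPM in Het_2, Het_7, Het_484 and Het_491, so that WT_6 and Het_2 were high and Het_491 low in both genes. The receptor subunits varied more among WT than among Opa1+/- mice, from 6.22 to 9.93% against 3.09 to 5.64%, a difference that was not tested.

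Oasl2, an interferon-induced gene related to the oligoadenylate synthetases and the nearest gene to Irf1, was at 26.8, 27.9, 20.8 and 21.6 CPM in WT mice and at 35.9, 37.3, 32.1 and 26.6 CPM in Opa1+/- mice (edgeR log2 fold change 0.44, adjusted p = 0.722). Het_491 had the lowest value of its group in Oasl2, Irf1 and Irf7, and Het_2 and Het_7 had the highest values in all 3 genes. In 26 groups of 4 mice checked for a value far from the others, none passed Dixon's limit.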
